A study of Mus musculus with 21 samples.

Results

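The carbonic anhydrases of mouse bone marrow were followed through 7 genes, Car1, Car2, Car4, Car5b, Car8, Car12 and Car13, of 18217 genes that had a named probe on the array. Each gene was read from its brightest probe, found by matching the transcript accession of the probe to the gene symbol, and all 7 genes were matched. The brightest probe was chosen from its mean over all 21 arrays, and the family was proposed with these levels in view, so the levels describe the genes and the adjusted p-values below measure the error of each difference and are no independent evidence for the choice of genes. Primary haematopoietic cells of C57BL/6 mice were sorted from bone marrow into 7 fractions, and 3 samples of each fraction were hybridised to 1-colour Agilent arrays, 21 arrays in all. The labels name no transgene or treatment and give neither the age of the mice nor how many were pooled for a sample, so the p-values measure the spread between these samples.

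The starting fraction was KLS, the multipotent progenitors, labelled lin- ckit+ sca1+. Lin covered the antigens CD3, CD4, CD8, B220, Ter119, Gr1, Mac1 and CD41. Along the erythroid path came PreMegE (CD150+, CD105-, FGCrI/II-), CFUe (CD150-, CD105-, FCGrI/II-) and the maturing erythroblasts labelled Ter119 (CD71+ Ter119+). Along the myeloid path came PreGM (CD150-, CD105-, FGCrI/II-), GMP (CD150-, FCGrI/II+) and the mature cells labelled Mac1Gr1 (Mac1+ Gr1+). PreMegE, CFUe, PreGM and GMP were all labelled lin- ckit+ sca1+ as well, and the labels give CFUe and PreGM the same antigens. Ly6a, which encodes Sca1, had mean log2 levels of 2.57 in KLS, -3.14 in PreMegE, -0.31 in PreGM and 2.10 in GMP, and passed the background flag on 1 CFUe array only. Eng, which encodes CD105, stood at 2.47 in CFUe, 2.15 in PreMegE, 2.07 in KLS and 1.68 in PreGM, all within 2-fold. Other antigens followed the labels. Slamf1, which encodes CD150, stood at 0.32 in PreMegE and passed the background flag on no array of CFUe, PreGM or GMP. Fcgr3, an Fc gamma receptor gene, stood at 3.33 in GMP, -0.28 in PreGM and -2.14 in PreMegE. It passed the flag on 1 CFUe array only.

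Carbonic anhydrases are zinc enzymes that interconvert carbon dioxide and bicarbonate with release of a proton. In red cells the cytosolic enzymes load carbon dioxide for transport to the lung as bicarbonate, which leaves the cell through the anion exchanger band 3, and carbonic anhydrase activity also supplies protons and bicarbonate for pH control in other blood cells. The family divides by place in the cell: Car1, Car2 and Car13 are cytosolic, Car5b is mitochondrial, Car4 is anchored at the cell surface, Car12 spans the plasma membrane with its catalytic domain outside, and Car8 is a family member without catalytic activity.

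Levels are log2 intensity relative to the 75th percentile of the same array, so a difference of 1 is 2-fold. Differences between fractions were taken within a probe. Levels of different probes were compared to choose the brightest probe of a gene and summed for the marker lists. The sums of different lists rest on different probes. A difference was called where its limma adjusted p was under 0.05 and its size at least 2-fold, with p-values adjusted over 29527 probes tested, and no call was made between 2 fractions in which no array was well above background. Well above background is the scanner software's own flag for a spot. Car1, Car2 and Car13 were well above background on 21 of 21 arrays, Car5b on 20 and Car12 on 9, and these 5 genes passed the filter on dim probes. Car4 (3 arrays) and Car8 (2 arrays) did not pass it and were not tested.

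Between 56.3% and 77.4% of probes were well above background on an array, and every array correlated best with another of its own fraction. Marker transcripts of other lineages touch several results below. All 12 granulocytic markers were well above background on every Ter119 array, and their summed log2 level there (12.21 to 12.54) was close to that in Mac1Gr1 (12.41 to 12.58) and above that in CFUe (2.43 to 5.37). B cell markers were also highest in Ter119 (6.59 to 7.12, 5 of 5 markers well above background on all 3 arrays), beside erythroid markers at 10.42 to 10.79. Mast cell or basophil markers (5.29 to 5.68, 4 of 4 called higher than in CFUe at -2.61 to -1.01), eosinophil markers (3 of 3), macrophage markers (6 of 6) and T cell markers (3 of 3) were higher in Ter119 than in CFUe as well. In such bulk samples, fewer cells of a type and less RNA per cell cannot be told apart.

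**Figure D1:**
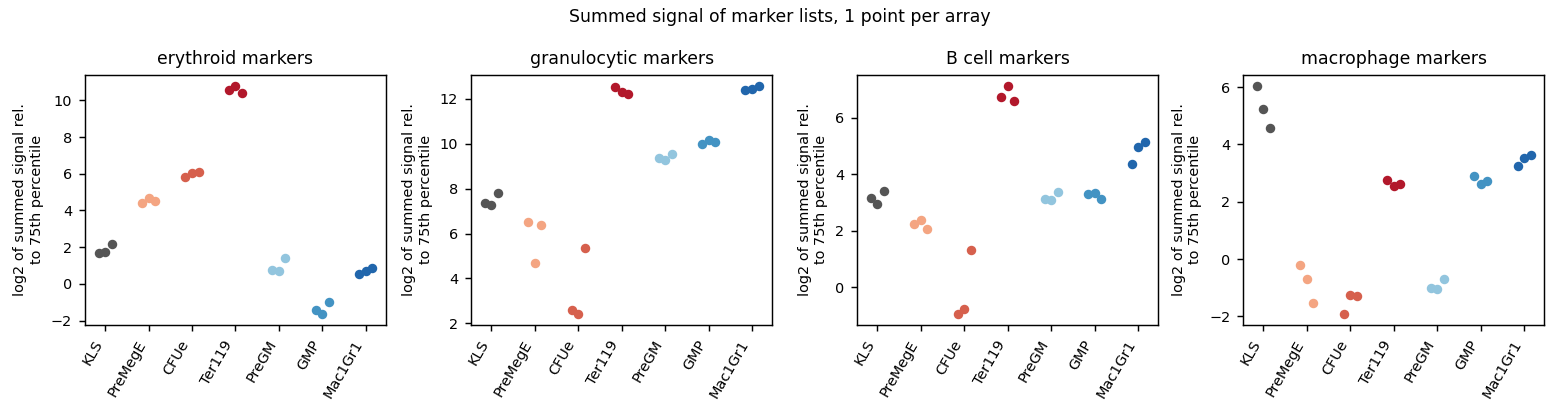
Summed signal of erythroid, granulocytic, B cell and macrophage marker lists (y axis, log2 of the sum of the markers' signals relative to the array's 75th percentile) in the 7 fractions (x axis), with 1 point per array. Granulocytic markers reached 12.21 to 12.54 in Ter119 and 12.41 to 12.58 in Mac1Gr1, and macrophage markers were highest in KLS at 4.56 to 6.04.

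Car1 and Car2, the main cytosolic enzymes of red cells, both reached their highest level in CFUe. There they were 530-fold and 94.7-fold higher than in GMP. They then parted: Car1 was 101-fold lower in Ter119 than in CFUe, whereas Car2 stood at the same mean level within 0.02 on the log2 scale. On the myeloid path Car2 was lower at each of the 3 steps and Car13 only at the last, and Car12 was well above background on every array of KLS, PreGM and GMP but on none of the other fractions.

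**Figure D2:**
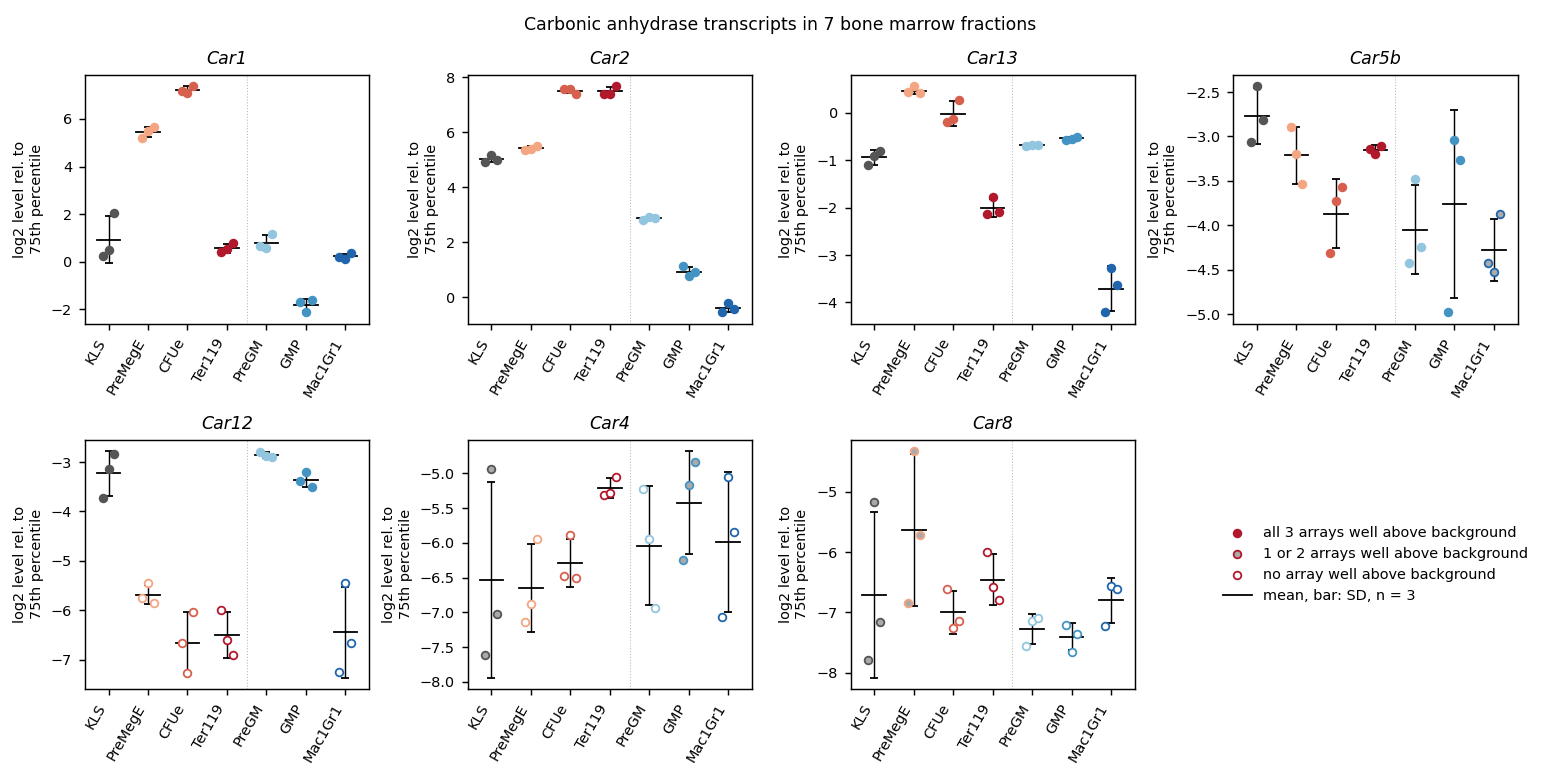
Log2 level relative to the array's 75th percentile (y axis) of the 7 carbonic anhydrase genes in the 7 fractions (x axis), with KLS and the erythroid path to the left of the dotted line and the myeloid path to the right. Points are arrays, lines are means, bars are SD (n = 3), and grey or white points mark fractions with 1 or 2, or no, arrays well above background. Car1 and Car2 peak in CFUe at means of 7.23 and 7.51, and Car12 is at or above -3.72 only in KLS, PreGM and GMP. Each panel has its own scale.

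Car1 encodes the abundant low-activity cytosolic enzyme of the red cell. Its log2 level was 0.23, 0.50 and 2.05 in the 3 KLS samples, 5.21, 5.48 and 5.67 in PreMegE, 7.18, 7.11 and 7.39 in CFUe, and 0.40, 0.54 and 0.78 in Ter119. On the myeloid path it was 0.66, 0.58 and 1.16 in PreGM, -1.71, -2.13 and -1.62 in GMP, and 0.18, 0.12 and 0.35 in Mac1Gr1. All CFUe and PreMegE arrays were above every other array, and all GMP arrays were below. The third KLS sample stood above the others, and its summed erythroid markers were also the highest of the 3 (2.18, against 1.69 and 1.76).

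Between KLS and PreMegE, Car1 rose by 4.53 ± 0.33 (SE, n = 3 against 3, limma adjusted p = 1.68e-08), and by between 4.18 and 5.09 when any array was left out. At this step all 6 macrophage markers were called lower (4.56 to 6.04 in KLS, -1.53 to -0.19 in PreMegE). So were 4 of 5 stem markers (5.27 to 5.44, then 3.17 to 3.35), 1 of 12 granulocytic and 1 of 5 B cell markers. Called higher were 5 of 6 megakaryocyte markers (2.41 to 2.82, then 5.22 to 5.55) and 4 of 7 erythroid markers. Of 4 mast cell or basophil markers 1 was higher and 1 lower. The part of these markers in the changes of Car1, Car13 and Car12 from KLS to PreMegE was not tested. Car1 rose again by 1.77 ± 0.33 from PreMegE to CFUe (limma adjusted p = 2.29e-04), a difference that was 1.14 after quantile scaling and 1.90 on the slide that held both fractions. Called lower there were 6 of 6 megakaryocyte, 3 of 3 eosinophil, 3 of 4 mast cell or basophil, 4 of 5 stem and 3 of 6 macrophage markers. Of 12 granulocytic markers 5 were lower and 1 higher, and 4 of 7 erythroid markers were higher. The part of these markers in the rises of Car1 and Car2 was not tested. From CFUe to Ter119 Car1 fell by 6.65 ± 0.33 (limma adjusted p = 7.87e-12), and by 6.40 within the 1 shared slide. Over this step the markers of 6 other cell types were higher as given above, and the erythroid list went from 5.85 to 6.09 in CFUe up to 10.42 to 10.79 in Ter119. Their part in the fall of Car1, and in the results for Car2, Car13, Car9 and Car11 at this step, was not tested.

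In the myeloid path Car1 did not differ detectably between KLS and PreGM (-0.12 ± 0.33, limma adjusted p = 0.835). It fell by 2.62 ± 0.33 from PreGM to GMP (limma adjusted p = 1.48e-05). With it, 3 of 7 erythroid markers were called lower (0.72 to 1.40 in PreGM, -1.62 to -0.98 in GMP). A further 2 had no call, since both fractions were below background. Also called lower were 4 of 5 stem and 3 of 6 megakaryocyte markers. Called higher were 3 of 3 eosinophil, 6 of 12 granulocytic, 2 of 6 macrophage and 1 of 4 mast cell or basophil markers. The part of these markers in the falls of Car1 and Car2 from PreGM to GMP was not tested. From GMP to Mac1Gr1 Car1 was higher by 2.04 ± 0.33 (limma adjusted p = 2.44e-05), with values that did not overlap. That last difference depended on the scaling. It was 0.01 with the added spike-in RNAs as the reference (adjusted p = 0.983) and 2.74 with the slide as a block. Under spike-in scaling the median of all probes was -1.86 at this step, beside 0.17 in the main setting. Summed erythroid markers moved the same way, from -1.62 to -0.98 in GMP up to 0.53 to 0.89 in Mac1Gr1. Of these 7 markers 3 were called higher, and 5 were well above background on all Mac1Gr1 arrays. Called higher too were 5 of 5 B cell and 1 of 3 T cell markers. Eosinophil (3 of 3) and mast cell or basophil (2 of 4) markers were called lower. Of 12 granulocytic markers 9 were higher and 3 lower, and of 6 macrophage markers 5 were higher and 1 lower. Of 6 megakaryocyte markers 2 were higher and 1 lower, and of 5 stem markers 1 was higher and 3 lower. The part of these markers in the changes of Car1, Car2, Car12 and Car13 from GMP to Mac1Gr1 was not tested. In the order of Car1 levels, KLS, PreGM, Ter119 and Mac1Gr1 formed a run of neighbours that did not differ beyond their spread, below PreMegE and above GMP.

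Car2, the high-activity cytosolic enzyme of red cells and of acid-secreting cells, had a median SD of 0.12 over the fractions, the smallest of the 7 genes. Its log2 level was 4.94, 5.17 and 4.99 in KLS, 5.36, 5.39 and 5.49 in PreMegE, 7.56, 7.56 and 7.40 in CFUe, and 7.38, 7.40 and 7.69 in Ter119. It was 2.82, 2.91 and 2.90 in PreGM, 1.13, 0.78 and 0.91 in GMP, and -0.53, -0.20 and -0.42 in Mac1Gr1. CFUe and Ter119 overlapped, and every other pair of fractions was separate. Car2 in KLS was already within 0.38 of its level in PreMegE (SE 0.12, limma adjusted p = 0.0273, under 2-fold).

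Car2 rose by 2.09 ± 0.12 from PreMegE to CFUe (limma adjusted p = 6.35e-10), or by 1.51 after quantile scaling and 2.20 within the shared slide. Between CFUe and Ter119 the difference was -0.02 ± 0.12 (limma adjusted p = 0.894). Spike-in scaling gave -1.39 for this step (adjusted p = 5.15e-04), beside a median of -1.33 over all probes, and quantile scaling gave 0.48 (adjusted p = 0.00981). On the myeloid path Car2 fell by 2.16 ± 0.12 from KLS to PreGM (limma adjusted p = 5.61e-09). It fell by a further 1.93 ± 0.12 to GMP (limma adjusted p = 6.76e-09) and by 1.33 ± 0.12 to Mac1Gr1 (limma adjusted p = 2.31e-08). With spike-in scaling the fall from PreGM to GMP was -0.92, short of 2-fold, where the median of all probes was 0.99. Macrophage markers were higher in KLS (4.56 to 6.04) than in PreGM (-1.03 to -0.69). So were stem markers (5.27 to 5.44 against 2.74 to 2.92), and 3 of 6 megakaryocyte markers were called higher in KLS. In PreGM, 3 of 4 mast cell or basophil markers were called higher and 1 lower, and 4 of 12 granulocytic markers higher. The part of these markers in the falls of Car2 and Car5b from KLS to PreGM was not tested.

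Car13, a further cytosolic enzyme, is the neighbour of Car1 on chromosome 3, where the order in the gene table is Car13, Car1, Car3, Car2. Its levels moved over a narrower range. They were -1.11, -0.92 and -0.80 in KLS, 0.44, 0.57 and 0.41 in PreMegE, -0.20, -0.14 and 0.28 in CFUe, and -2.14, -1.78 and -2.09 in Ter119. PreGM stood at -0.70, -0.67 and -0.68, GMP at -0.57, -0.56 and -0.50, and Mac1Gr1 at -4.21, -3.28 and -3.63. PreMegE was the highest fraction, and the mature fractions of both paths lay below all others without overlap.

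In PreMegE, Car13 was higher than in KLS by 1.42 ± 0.19 (limma adjusted p = 1.61e-05), or by 0.95 with spike-in scaling, which is under 2-fold. The CFUe level was lower than that of PreMegE by 0.49 ± 0.19 (limma adjusted p = 0.0348), also under 2-fold. Car13 fell by 1.98 ± 0.19 from CFUe to Ter119 (limma adjusted p = 3.31e-08), the step with the marker changes given above. For that fall, normexp background correction gave -1.31 and spike-in scaling -3.36. In the myeloid path Car13 was level through the progenitors, with differences of 0.26 and 0.14 that did not pass the test (limma adjusted p = 0.346 and 0.643). It then fell by 3.16 ± 0.19 from GMP to Mac1Gr1 (limma adjusted p = 7.19e-11), between 2.91 and 3.38 when any array was left out. The size depended on the processing, at -1.62 after normexp and -5.19 with spike-in scaling.

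Car5b, the mitochondrial enzyme, was dim, with a median SD of 0.35 over the fractions. Its lowest and highest arrays were -4.98 and -2.43 over all 21. The 3 KLS arrays were at -3.06, -2.43 and -2.82, the PreGM arrays at -4.43, -3.48 and -4.24, the Ter119 arrays at -3.14, -3.20 and -3.11, and the Mac1Gr1 arrays at -4.42, -4.53 and -3.87. GMP spanned -4.98 to -3.04 alone. No neighbours in the order of its levels differed detectably.

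The fall of Car5b from KLS to PreGM was 1.28 on the log2 scale (a log2 difference of -1.28 ± 0.40, limma adjusted p = 0.0248). It was smaller in the fit that blocked on slide (-0.69, adjusted p = 0.367) and after normexp background correction (-0.55). Without KLS replicate 2, PreGM replicate 1 or PreGM replicate 3 it was of similar size (-1.11, -1.09 and -1.18) but did not pass the threshold (adjusted p = 0.102, 0.106 and 0.0687). Ter119 was higher than Mac1Gr1 by 1.13 ± 0.40 (limma adjusted p = 0.0191). Quantile scaling (0.70), the series table (0.69), spike-in scaling (0.40) and normexp (0.67) each took that difference under 2-fold. Without Mac1Gr1 replicate 1 or 2 it was 1.05 or 1.0, with adjusted p = 0.0562 and 0.0665.

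Car12, the transmembrane enzyme, was measured in KLS and the myeloid progenitors alone. Its log2 level was -3.72, -3.14 and -2.83 in KLS, -2.79, -2.88 and -2.89 in PreGM, and -3.38, -3.20 and -3.50 in GMP. No array of PreMegE (-5.85 to -5.45), CFUe (-7.27 to -6.04), Ter119 (-6.90 to -5.99) or Mac1Gr1 (-7.24 to -5.44) was well above background, so the level in those fractions has only an upper bound. The measured and the dim fractions did not overlap. A second Car12 probe was well above background on 0 of 21 arrays, so that the pattern rests on a single probe.

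Because the dim fractions give bounds, Car12 differences are stated as the smallest fold the lowest measurable signal allows. Car12 was at least 4.82-fold higher in KLS than in PreMegE (limma adjusted p = 9.84e-05) and at least 6.25-fold higher in PreGM than in PreMegE (limma adjusted p = 2.41e-05). It was at least 2.84-fold higher in GMP than in CFUe (limma adjusted p = 1.30e-06) and at least 2.58-fold higher in GMP than in Mac1Gr1 (limma adjusted p = 1.08e-06). These p-values belong to the fitted differences, which use signals below background, and not to the bounds. Car12 passed the filter on dim probes only through KLS, PreGM and GMP, so they are no independent evidence that it is higher there. Among the measured fractions, PreGM differed from KLS by 0.38 ± 0.38 and GMP from PreGM by -0.50 ± 0.38, neither past the threshold (limma adjusted p = 0.526 and 0.376). After normexp background correction, which adds an offset of 50 and compresses dim signals, the fitted differences shrank to -0.70 for PreMegE against KLS, -0.57 for CFUe against GMP and -0.03 for Mac1Gr1 against GMP.

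Of the 7 genes, the RefSeq promoter table (GRCm38.p6) holds Car4, Car5b and Car12. The Car12 window is shown because Car12 was well above background in KLS, PreGM and GMP alone. It is the 250 bases before an annotated start, chr9:66713436-66713685 on the plus strand, and the capitals mark the only match to GGAAGTG, a PU.1-type Ets motif, on either strand:

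Car12: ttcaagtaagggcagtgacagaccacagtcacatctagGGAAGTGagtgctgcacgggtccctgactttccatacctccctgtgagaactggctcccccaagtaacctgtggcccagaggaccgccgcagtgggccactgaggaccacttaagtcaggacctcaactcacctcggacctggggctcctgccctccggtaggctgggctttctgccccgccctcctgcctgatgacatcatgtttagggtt

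GGAAGTG occurs on either strand in 8.55% of 32851 such windows, so that 1 match is a description of this sequence and not a site. AGATAA or TGATAA, the GATA-type letters, occur in 16.6% of the windows and in none of the windows of these 3 genes. The Car4 and Car5b windows hold no GGAAGTG.

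Car4, the enzyme anchored at the outer cell surface, ranged from -7.61 to -4.84 over the 21 arrays. It was well above background in KLS on 1 array and in GMP on 2. Car8, the member without catalytic activity, ranged from -7.79 to -4.33 and was well above background on 1 KLS and 1 PreMegE array. Its second probe was well above background on 0 of 21 arrays. Neither gene has a measured order of fractions.

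**Figure D3:**
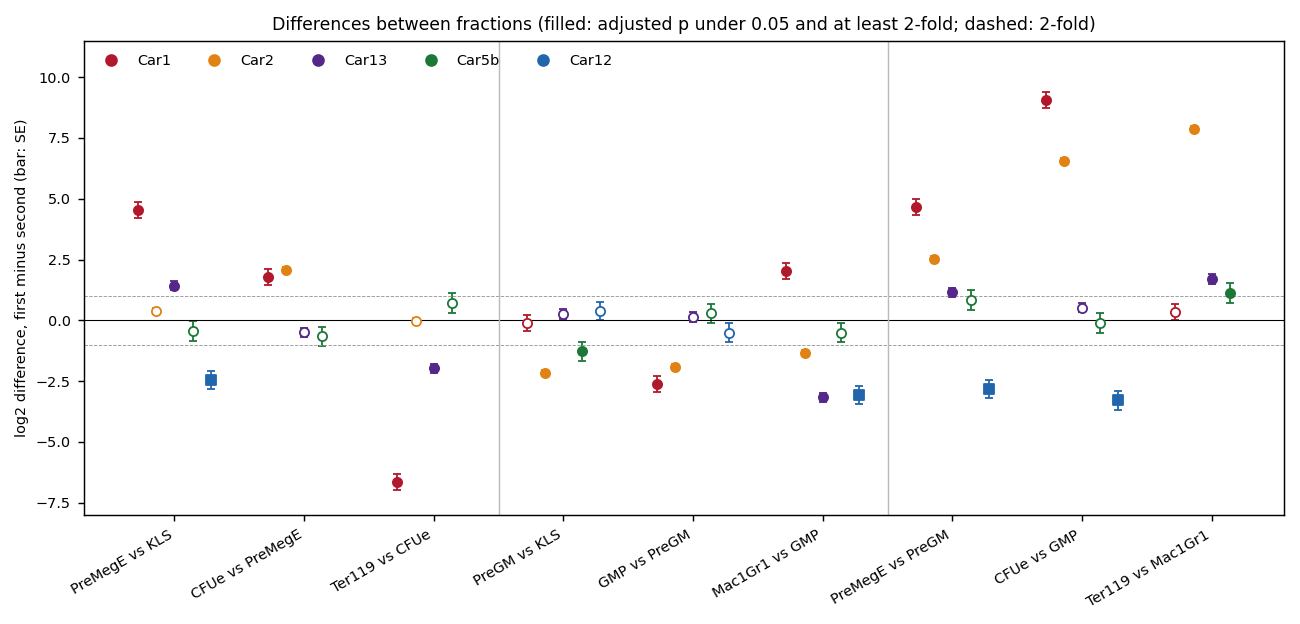
Log2 difference between fractions, first named minus second (y axis), with SE bars from the limma fit, for the 5 tested genes in 9 comparisons (x axis). Filled symbols were called, squares mark Car12 differences in which the lower fraction was below background, and Car12 is left out where both fractions were. Car1 runs from -6.65 in Ter119 against CFUe to 9.05 in CFUe against GMP.

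Counted over the 5 tested genes, called differences followed the paths unevenly. From KLS to PreMegE, 2 genes rose (Car1, Car13) and Car12 fell, where 3.53% of all probes rose and 8.77% fell by the same rule. From PreMegE to CFUe, Car1 and Car2 rose, where 9.81% of all probes rose and 14.6% fell. From CFUe to Ter119, Car1 and Car13 fell, at a step where 28.2% of all probes rose and 27.9% fell. Spike-in scaling left 1 rise and 1 fall at the first of these steps, and gave 2 rises and 2 falls at the second and 3 falls at the third. The median difference of the genes measured at each step (5, 4 and 4, without Car12 where both fractions were below background) was 0.38, 0.64 and -1.0, beside 0.13, 0.12 and 0.05 over all probes.

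On the myeloid path the calls were falls at the first 2 steps. From KLS to PreGM, Car2 and Car5b fell, where 2.07% of all probes rose and 6.48% fell. From PreGM to GMP, Car1 and Car2 fell, where 3.97% rose and 6.13% fell. From GMP to Mac1Gr1, Car1 rose while Car2, Car12 and Car13 fell, where 28.8% of all probes rose and 27.6% fell. With spike-in scaling, Car13 (1.16, adjusted p = 0.00172) and Car5b (1.30, adjusted p = 0.00301) rose and Car1 fell from PreGM to GMP, and 4 genes fell and none rose from GMP to Mac1Gr1. Medians were -0.12, -0.50 and -1.33, beside 0.06, -0.02 and 0.17 over all probes.

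Set against each other at the same step, the paths differed in Car1, Car2, Car13 and Car12 at the first fractions. In PreMegE, Car1 was higher than in PreGM by 4.65 ± 0.33 (limma adjusted p = 1.48e-08), and by 4.81 and 4.51 on the 2 slides that held both. Car2 was higher by 2.54 ± 0.12 (limma adjusted p = 1.95e-10) and Car13 by 1.16 ± 0.19 (limma adjusted p = 1.42e-04), with Car12 lower as given above, where 5.79% of all probes were called higher and 6.05% lower. In CFUe against GMP, Car1 was higher by 9.05 ± 0.33 (limma adjusted p = 6.29e-13) and Car2 by 6.56 ± 0.12 (limma adjusted p = 3.64e-16), and Car12 was lower, where 11.9% of all probes were called higher and 14.0% lower. Spike-in scaling called Car5b lower there too (-1.49). In Ter119 against Mac1Gr1, Car2 remained higher by 7.87 ± 0.12 (limma adjusted p = 2.66e-17), a 234-fold difference. Car13 was higher by 1.70 ± 0.19 (limma adjusted p = 4.73e-07), or 0.98 with spike-in scaling and 0.87 after normexp, and Car5b by the amount given above, where 21.2% of all probes were called higher and 19.9% lower. Car1 did not differ detectably between the mature fractions (0.36 ± 0.33, limma adjusted p = 0.351). These comparisons share samples with the steps above and are not separate evidence.

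The steps themselves were compared between the paths. Over the second step, the change from PreMegE to CFUe exceeded that from PreGM to GMP by 4.40 ± 0.46 for Car1 (limma adjusted p = 1.55e-06) and by 4.02 ± 0.17 for Car2 (limma adjusted p = 8.61e-11), the 2 genes called of 4 with measured steps, where 7.67% of all probes were called higher and 11.1% lower. Spike-in scaling called 2 genes higher and 2 lower there. Over the third step, 2 of the 4 genes were called higher and 1 lower, where 19.2% of all probes were called higher and 18.2% lower. The change from CFUe to Ter119 was below that from GMP to Mac1Gr1 for Car1 (-8.70 ± 0.46, limma adjusted p = 1.86e-10). It was above for Car2 (1.31 ± 0.17, limma adjusted p = 6.07e-06) and Car13 (1.18 ± 0.26, limma adjusted p = 0.00109). Car12 gives no value for either step, since it was below background in both erythroid fractions compared. The Car13 difference was under 2-fold after quantile scaling (0.95), with the series table (0.96), after normexp (0.30) and without Mac1Gr1 replicate 1 (0.92).

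**Figure D4:**
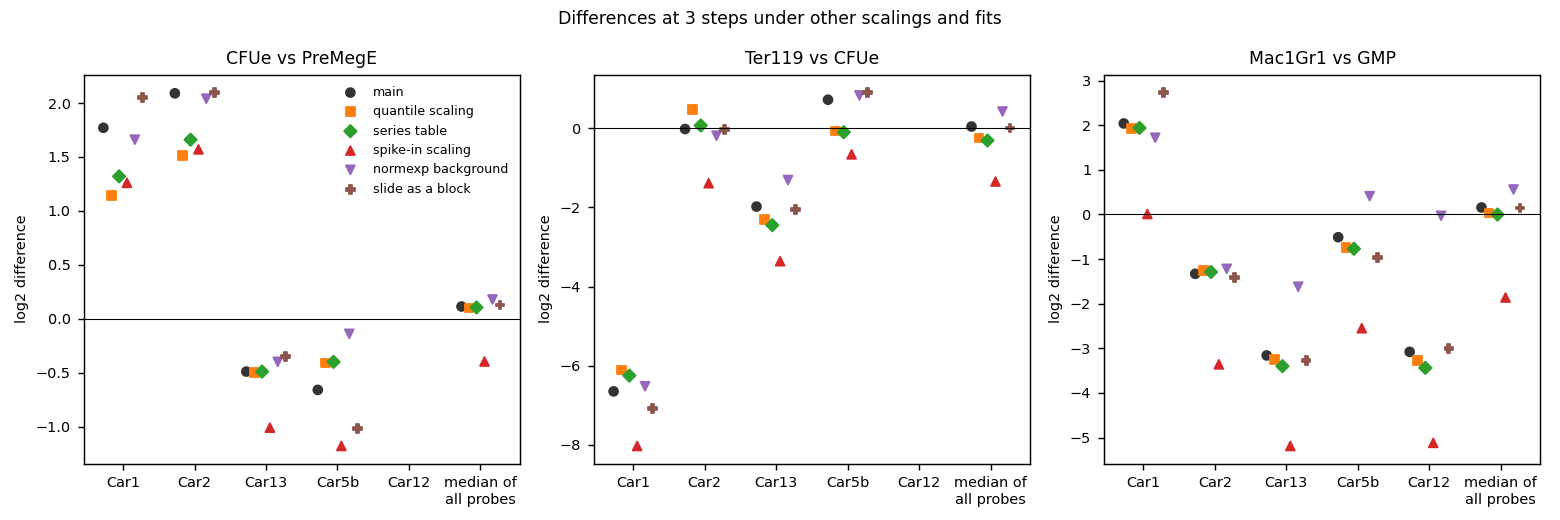
Log2 differences of the tested genes and the median of all probes (x axis) at 3 steps under 6 ways of scaling or fitting (symbols), with main the 75th percentile scaling. Car12 is left out where both fractions were below background. For Car1 in Mac1Gr1 against GMP, spike-in scaling gave 0.01 against 2.04, and Car1 in Ter119 against CFUe stayed at or below -6.11 under the scalings and the slide block.

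The other carbonic anhydrases did not follow a single course, and Car3 correlated with Car13 and Car7 with Car2, as given below. Of 9 further family genes, 8 were matched and 6 tested. Car3, the cytosolic muscle and fat enzyme that lies between Car1 and Car2 on chromosome 3, stood at -0.14, -0.24 and 0.25 in PreGM and -0.37, -0.28 and -0.10 in PreMegE, values that overlapped (a difference of -0.21 ± 0.31, limma adjusted p = 0.702). It was lower in Ter119 than in CFUe by 2.48 ± 0.31 (limma adjusted p = 1.21e-06) and in Mac1Gr1 than in GMP by 3.72 ± 0.31 (limma adjusted p = 6.85e-09). Over the 21 arrays its level correlated with that of Car13 (Pearson r = 0.886), where Car1 and Car2 gave r = 0.636, as a description of arrays that share fractions. Car7, a further cytosolic enzyme, rose by 2.26 ± 0.27 from PreMegE to CFUe (limma adjusted p = 2.81e-06) and stood at 4.48, 4.46 and 4.62 in Ter119. Its level correlated with Car2 at r = 0.803.

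Car9, the hypoxia-induced cell-surface enzyme, was separate in Ter119, at 1.32, 1.09 and 1.32, from every other array, all at or below -0.32. It was higher in Ter119 than in CFUe by 2.27 ± 0.18 (limma adjusted p = 4.90e-09). Car11, a relative without catalytic activity, was higher there by 1.37 ± 0.35 (limma adjusted p = 0.00195). Car14 and Car15 were called in no comparison of fractions, and Car6 and Car10 were too dim to test. Over the 6 tested genes, 0 were called from KLS to PreMegE (3.53% of all probes rose and 8.77% fell) and from KLS to PreGM (2.07% and 6.48%). From PreMegE to CFUe 1 rose (9.81% and 14.6%), and from CFUe to Ter119 2 rose and 1 fell (28.2% and 27.9%).

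**Figure D5:**
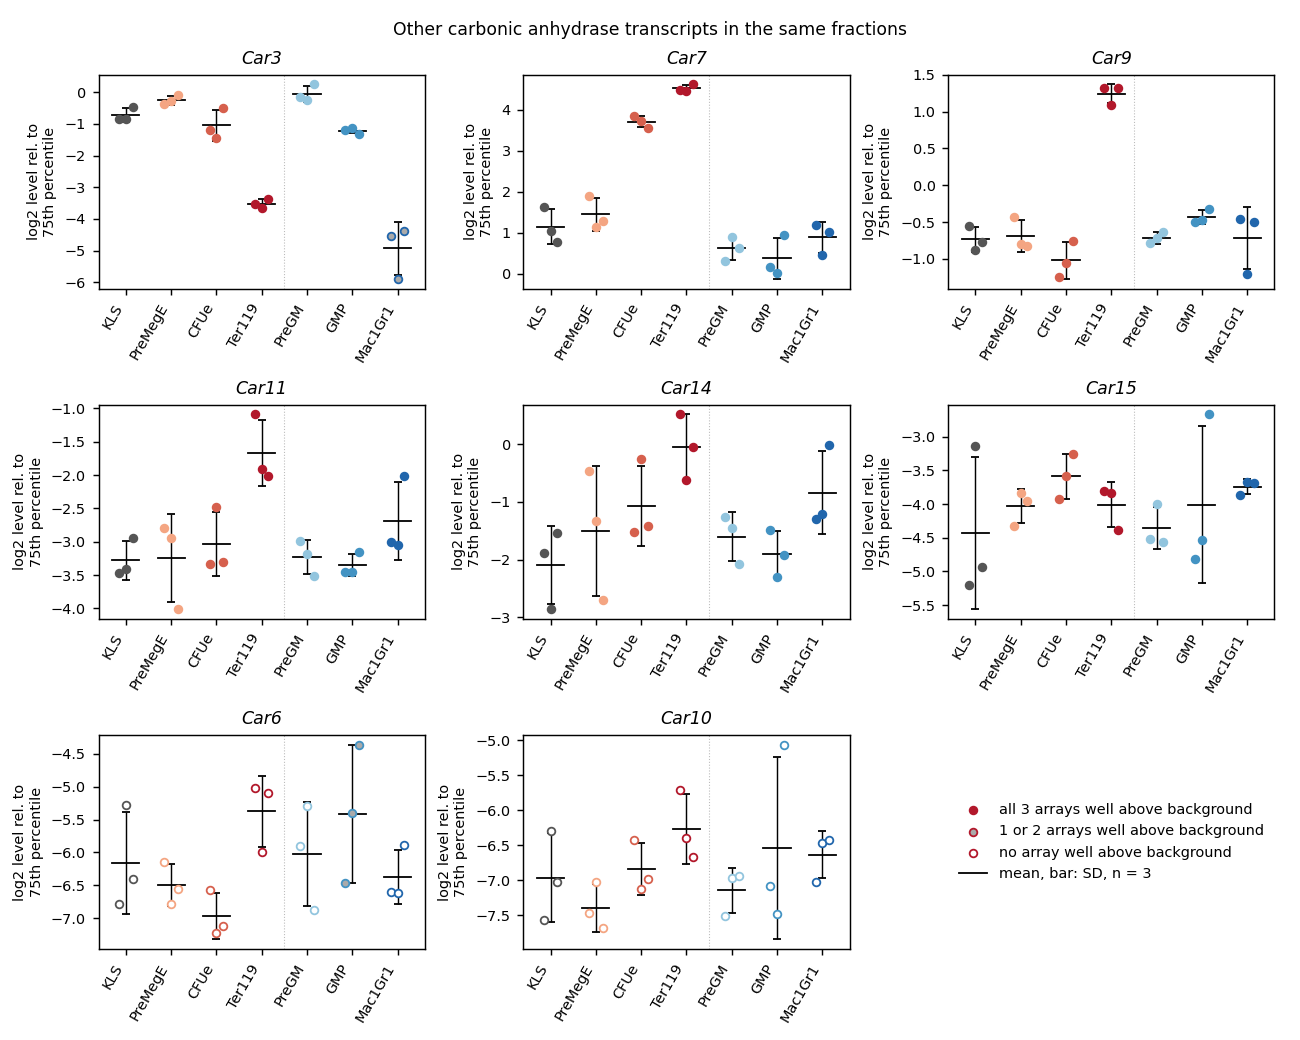
Log2 level relative to the array's 75th percentile (y axis) of 8 other carbonic anhydrase genes in the 7 fractions (x axis), drawn as for the first 7 genes. Car9 lies above 1 on the 3 Ter119 arrays alone, Car7 is highest in CFUe and Ter119, and Car6 and Car10 were well above background on 1 and 0 of 21 arrays.

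Genes that carry the substrates and products of the reaction were taken from a list of 25 transporters and channels, of which 24 were matched and 16 tested. From CFUe to Ter119, 7 rose and 2 fell (28.2% and 27.9% of all probes), and from GMP to Mac1Gr1, 8 rose and 5 fell (28.8% and 27.6%). Slc4a1, band 3, the chloride-bicarbonate exchanger of the red cell, went from a mean log2 level of -2.89 in CFUe to 8.89 in Ter119, a rise of 11.78 ± 0.22 (limma adjusted p = 3.17e-16). It is also 1 of the 7 erythroid markers, and it rose at the step where Car1 fell. Aqp1, a water channel of the red cell, rose with Car1 from KLS to PreMegE, by 4.83 ± 0.30 (limma adjusted p = 2.38e-09). Like Car1, it fell from PreGM to GMP, by 5.62 ± 0.30 (limma adjusted p = 1.24e-09).

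From PreMegE to CFUe, 6 of the 16 rose and 3 fell (9.81% and 14.6% of all probes). Rhag, the red cell ammonia and gas channel, rose by 4.54 ± 0.72 (limma adjusted p = 5.30e-05) and its partner Rhd by 5.55 ± 0.30 (limma adjusted p = 2.85e-10), as Car1 and Car2 rose. Slc16a1, a proton-linked lactate carrier, rose by 2.01 ± 0.16 at the same step (limma adjusted p = 1.80e-08) and fell by 4.92 ± 0.16 from GMP to Mac1Gr1 (limma adjusted p = 4.67e-14). Slc4a8, a sodium-driven bicarbonate exchanger, rose on the myeloid path from KLS to PreGM by 2.81 ± 0.37 (limma adjusted p = 4.29e-05) and fell by 5.71 ± 0.37 from GMP to Mac1Gr1 (limma adjusted p = 2.85e-10).

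The genes most like each carbonic anhydrase over the 21 arrays were named by the highest Pearson r among 14115 genes, as a description of arrays that fall into 7 fractions. For Car1 they were Mmp14 (0.984), Prss50 (0.977) and Naa80 (0.971). Car2 had Fam234b (0.98), Ormdl3 (0.968) and Mllt3 (0.963) nearest to it. Car13 was nearest to Nck2 (0.986), Snx5 (0.983) and Rftn1 (0.982), and Car12 to Lratd2 (0.958), Macroh2a1 (0.951) and Plppr3 (0.943). No gene came near to Car5b to the same degree, with Smagp (0.735) the closest.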

How the data were processed

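RNA from 21 samples of sorted mouse bone marrow was labelled with Cy3 by the authors and hybridised to 1-colour Agilent arrays. Deposited scanner files (Agilent Feature Extraction 10.7.1.1, per the file headers) hold a background-corrected intensity for each spot, and a deposited series table holds the authors' normalised log2 values of the same arrays, which was used as an alternative. Control spots and outlier spots (80 to 283 per array) were left out, spots of 1 probe were averaged, giving 41174 probes, and log2 intensity was taken minus each array's 75th percentile. No spot was saturated. Symbols came from the transcript accessions through a RefSeq gene table (GRCm38.p6), which named 26690 probes (64.8%). The array annotation names mm9, so that gene table was used for names and gene order only, and the promoter window carries its own build.

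A probe was kept if every array of some fraction flagged it well above background. The 29527 probes kept were fitted with limma 3.58.1 in R 4.3.3 as 7 fraction means over all 21 arrays (14 residual degrees of freedom). Calls needed a Benjamini-Hochberg adjusted p under 0.05 and 2-fold, and none was made where both fractions of a comparison, or of either step compared, had no array well above background (5 of 55 pairs of a gene and a comparison, all Car12). On simulated data, 173 of 200 probes changed by 2 on the log2 scale between PreMegE and CFUe were recovered (86.5%), with 6 false calls. The simulated probes had independent noise and, apart from those 200, no difference between fractions. In the measured data 9.81% of probes were called higher and 14.6% lower at this step, so these figures do not give the error of the calls above. Precision is limited by 3 arrays per fraction. The members, gene lists and tests were chosen with earlier results of these data known. Named genes are the members, the rest of the family, transporters that were called, and the 3 genes most correlated with each tested member. Fractions were taken from the labels. The replicate numbers did not pair the samples (the correlations of same-numbered arrays' deviations from their fraction means had a median of 0.002). The alternatives were quantile, spike-in and series-table scaling, normexp background correction, no filter, no minimum fold, the compared fractions alone, slide (9 slides) and replicate number as blocks, and leaving out each array.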

Additional observations from a re-analysis of the deposited data

Results flagged for a closer look

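The change over a step differed between the erythroid and the myeloid path, by the interaction contrast in limma, for the following genes, each on the log2 scale and with its groups' values given in the report. Over the second step (PreMegE to CFUe minus PreGM to GMP) the difference was 4.40 for Car1 and 4.02 for Car2. Over the third step (CFUe to Ter119 minus GMP to Mac1Gr1) it was -8.70 for Car1, 1.31 for Car2 and 1.18 for Car13. Leaving out any array kept the Car1 difference of the third step between -8.80 and -8.54 and that of Car2 between 1.21 and 1.40. The markers of other cell types in Ter119 lie on the same step, and their part was not tested.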

How the results depend on the processing

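Most of the 50 measured pairs of a gene and a comparison kept their direction and side of the threshold: 48 under quantile scaling, under the series table and with the slide as a block, 43 after normexp, 35 with spike-in scaling and all 50 with no filter on dim probes. With the replicate number as a block all 50 did so too, and the number of genes called from KLS to PreMegE was again 3. Under spike-in scaling the median difference of all probes ranged from -1.86 (Mac1Gr1 against GMP) to 0.99 (GMP against PreGM). Spike-in scaling called 4 genes in CFUe against PreMegE (2 in the main setting), 1 in Ter119 against Mac1Gr1 (3) and 4 in the second step compared between paths (2). Normexp called 1 gene in PreGM against KLS (2 in the main setting) and 1 in Ter119 against Mac1Gr1 (3), and the slide block called 1 in PreGM against KLS. Leaving out an array gave 1 to 2 genes there, Car5b being lost without KLS replicate 2 or PreGM replicate 1 or 3. Without GMP replicate 1, Car5b gained calls in Mac1Gr1 against GMP (-1.12) and in the second and the third step compared between paths (-1.55 and 1.84). The next-brightest probe gave no value, since the second probes of Car8 and Car12 were too dim. The cause of these changes was not tested. Signal over background limits Car12, Car4 and Car8.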
